A study of Mus musculus with 30 samples.

Results

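The steroidal ligand MePipHCA was compared with vehicle in primary mouse hepatocytes, and the changes are described across all measured genes. Members were the libraries labelled with this ligand at 1 uM or with vehicle in the hepatocyte count table, 2 of each, which makes 4 of the 30 libraries of the series. The study exposed hepatocytes, in duplicate, and thioglycollate-elicited peritoneal macrophages, in triplicate, to 5 ligands or vehicle and sequenced their polyadenylated RNA. All hepatocyte groups, vehicle included, were grown in Hepatozyme and had been moved 24 h before the ligand to lipid-deficient serum (10%) plus mevastatin (10 uM), a statin that blocks the cell's own sterol synthesis, and mevalonate (50 uM). Cells then stayed in this medium with the ligand for 18 to 20 h. MePipHCA and DMHCA (1 uM) are cholenamides, steroids with an amide on the side chain, built as mimics of desmosterol (10 uM), while T0901317 and GW3965 (1 uM) are synthetic, nonsteroidal agonists of the liver X receptors (LXR). The labels do not say whether 2 replicates of a group came from separate animals or cultures, so p-values measure the spread between these libraries, which may be technical.

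Cells sense sterols through a pair of linked systems. LXR are nuclear receptors that, when bound by oxysterols or desmosterol, switch on genes for cholesterol efflux, such as Abca1, and in hepatocytes also Srebf1, whose product SREBP-1c drives fatty acid synthesis. SREBP-2 is held in the endoplasmic reticulum by INSIG proteins when sterols are plentiful and is released to switch on cholesterol synthesis and uptake when sterols are scarce, as in lipid-deficient medium with a statin. SREBP factors bind sterol regulatory elements beside a CCAAT box, which the factor NF-Y occupies. The stress factor ATF4 and the endoplasmic reticulum chaperones belong to further programs that respond to amino acid shortage or to unfolded protein.

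Exon counts totalled 11959832 and 18626562 in the MePipHCA libraries, against 12854290 and 6627812 in the vehicle libraries, so vehicle replicate 2 carried the largest counting error. Genes with at least 1 count numbered 14626 and 14634 with MePipHCA, against 14514 and 14590 with vehicle. Replicates correlated at 0.982 for MePipHCA and 0.977 for vehicle on the log2 scale of CPM, the counts scaled to the size of the library, and differed beyond counting noise (chi-square per degree of freedom 5.61 and 5.69), so no library was a copy of another. The label hepatocyte fitted the markers: the summed level of 10 hepatocyte markers was 36900 and 34000 CPM with MePipHCA, against 41300 and 35800 CPM with vehicle. Alb, the serum albumin gene, had 22758 and 19662 CPM with MePipHCA, against 24201 and 19725 CPM with vehicle, and by the deposited values per transcript length (RPKM) it was the highest gene of the vehicle libraries. Of other cell types, 8 macrophage and Kupffer cell markers summed to 274 and 247 CPM with MePipHCA, against 271 and 260 CPM with vehicle. Cd68 gave most of these reads (2892 and 4075 with MePipHCA, 2924 and 1548 with vehicle), so the sum says little of the other markers. Among them Lyz2 had 62 and 127 reads with MePipHCA, against 209 and 25 with vehicle, and was high in vehicle replicate 1. The 7 endothelial markers summed to 52.0 and 42.6 CPM with MePipHCA, against 44.4 and 45.0 CPM with vehicle. The 6 cholangiocyte markers summed to 460 and 473 CPM with MePipHCA, against 364 and 480 CPM with vehicle. Most of these reads were of Spp1 (4412 and 7160 with MePipHCA, 3838 and 2591 with vehicle) and Sox9 (1030 and 1539 against 736 and 498). Krt19 (40 and 88 against 99 and 81) and Epcam (18 and 19 against 9 and 11) had fewer reads, and Cftr had 0 in all 4 libraries. Stellate cell and fibroblast markers summed to 2.76 and 2.90 CPM against 4.12 and 2.72 CPM, while B cell, T and NK cell, neutrophil and mesothelial markers stayed under 1 CPM in each library. No gene of the macrophage, stellate, endothelial or cholangiocyte lists passed the test.

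Of 13176 genes tested, 104 rose (0.789%) and 182 fell (1.38%) with MePipHCA at an adjusted p below 0.05 in edgeR's quasi-likelihood test, 286 in all (2.17%). Changes were moderate: the called genes had a median absolute log2 fold change of 0.575, with 11 above 1 and 25 below −1, and the median over all genes tested was 0.001. Genes that fell included 16 cholesterol synthesis enzymes and the plasminogen activator gene Plat, and rising genes included Aldh1l2, Pck2 and Trib3, known targets of ATF4, and Inhba, a subunit of the growth factor activin. Fewer genes were called in each direction without any one of the 4 libraries. Each of these fits left 1 library on a side. A call lost in this way, here and below, may therefore reflect the smaller group and not a changed estimate. Which of these applied was not tested. A fit of the 4 libraries alone called 198 up and 292 down, and without the filter on low counts 158 rose and 264 fell.

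**Figure D1:**
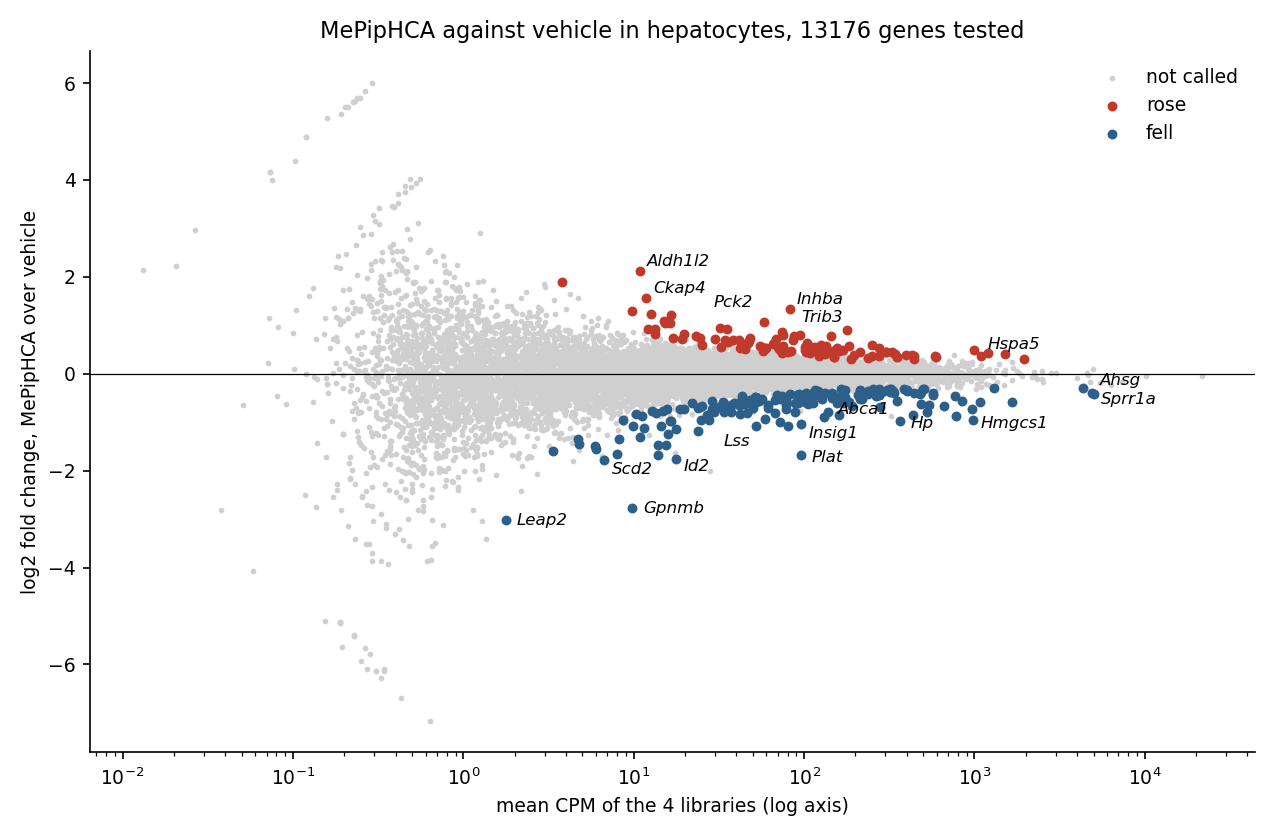
Each point is a gene, placed by its mean CPM over the 4 libraries (log axis) and its log2 fold change of MePipHCA over vehicle. Red points are the 104 genes that rose and blue points the 182 that fell, and most of them lie within 1 log2 unit of 0.

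Cholesterol biosynthesis enzymes fell together. Of 20 measured enzymes 16 fell and none rose, 19 had a log2 fold change below 0, and their median was −0.68, against 0.001 over all genes tested. For this and later list counts against vehicle, the shares over all genes tested were 1.38% that fell and 0.789% that rose. Hmgcs1, which makes HMG-CoA at the head of the mevalonate branch, had 637 and 697 CPM with MePipHCA, against 1226 and 1377 CPM with vehicle. Both MePipHCA values were below both vehicle values, and the log2 fold change was −0.96 ± 0.08 (SE, adjusted p = 7.56e-09). Here, and for every log2 fold change within hepatocytes given with its SE, n = 2 each. Lss, the cyclase that turns squalene epoxide into lanosterol, had 51.9 and 51.6 CPM with MePipHCA, against 118 and 101 CPM with vehicle. This was the enzyme with the lowest log2 fold change of the 20, −1.08 ± 0.10 (adjusted p = 1.1e-07), with no overlap between the groups. Acat2, the cytosolic thiolase that makes acetoacetyl-CoA, stood at 49.1 and 47.5 CPM with MePipHCA, against 94.6 and 97.5 CPM with vehicle, with a log2 fold change of −0.99 ± 0.11. Its close paralog Acat3, which lies beside it and can share reads with it, had 118 and 121 CPM with MePipHCA, against 107 and 138 CPM with vehicle and did not pass the test (−0.03 ± 0.10).

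The fall spanned the whole pathway. In the mevalonate branch the decarboxylase Mvd changed by −0.96 ± 0.16 and the kinase Pmvk by −0.85 ± 0.14, and the synthase Fdps, which makes farnesyl diphosphate, by −0.81 ± 0.12. Fdft1, the squalene synthase, had a log2 fold change of −0.78 ± 0.11. Past squalene, the demethylase Cyp51 had 308 and 313 CPM with MePipHCA, against 552 and 576 CPM with vehicle, a log2 fold change of −0.86 ± 0.09 with both MePipHCA libraries lower. Nsdhl, which removes carbon from the sterol nucleus, changed by −0.85 ± 0.09, the oxidase Msmo1 by −0.64 ± 0.08, Sc5d by −0.68 ± 0.08, Hsd17b7 by −0.61 ± 0.10 and Dhcr7, the last enzyme of one branch, by −0.64 ± 0.10. Sqle, the squalene epoxidase, had 143 and 152 CPM with MePipHCA, against 250.4 and 219 CPM with vehicle, which gave −0.67 ± 0.09 with no overlap. Among enzymes not called were the isomerases Ebp (−0.28 ± 0.13) and Idi1 (−0.42 ± 0.39), and the reductase Tm7sf2 (0.08 ± 0.16). The call of the kinase Mvk (−0.57 ± 0.15) was lost without any one of the 4 libraries (adjusted p 0.0855 to 0.289). Per transcript length, Hmgcs1 was far more abundant than Lss: the deposited values were 146 and 161 RPKM with MePipHCA and 285 and 304 RPKM with vehicle for Hmgcs1, against 6.67 and 6.65 RPKM with MePipHCA and 15.2 and 12.5 RPKM with vehicle for Lss. In the annotation 20.9% of the exon bases of Fdft1 lie opposite exons of Ctsb, 16.0% of those of Hmgcs1 opposite the gene model Gm48342, and 77.4% of those of Fdps are shared with the model Gm43738. No strand option is given for the counts, so reads of such neighbours cannot be told apart.

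**Figure D2:**
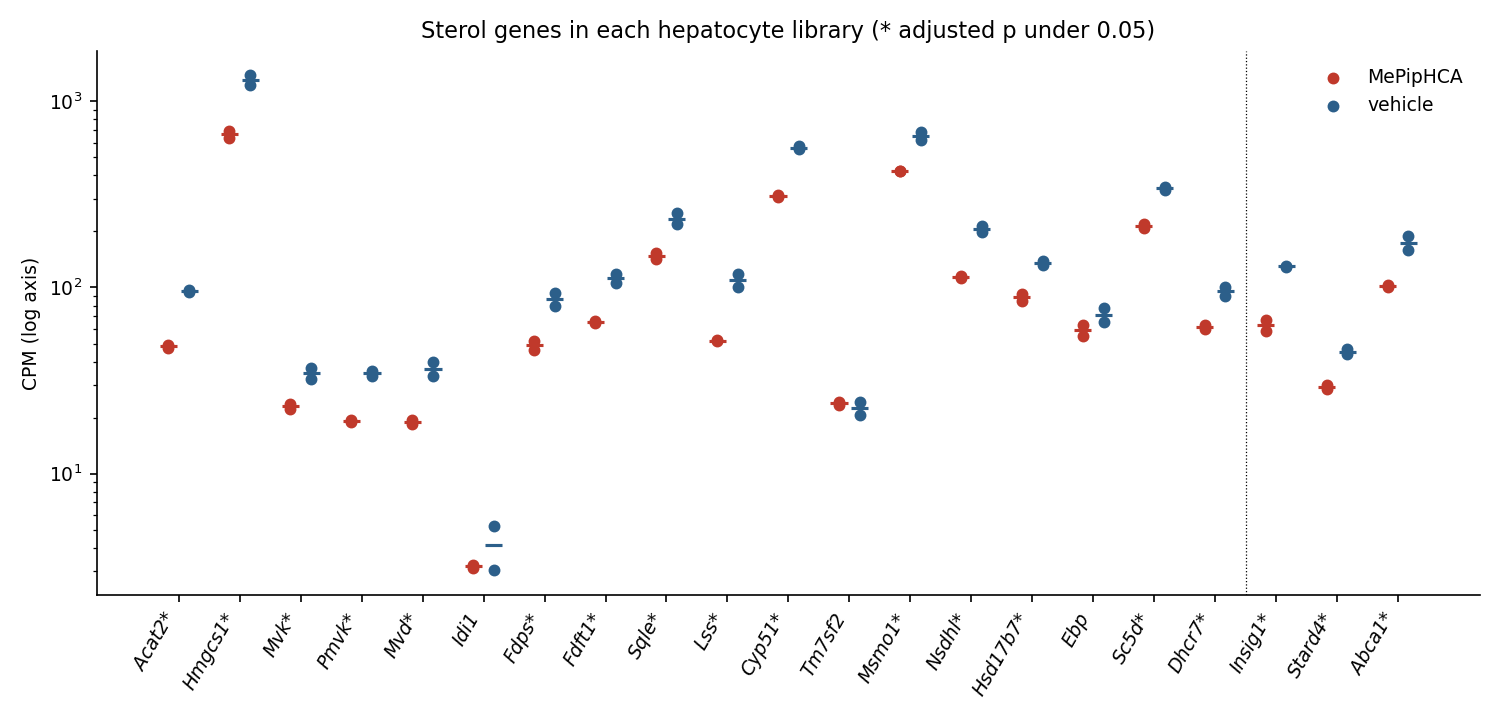
Dots are single libraries and short bars the means of 2, on a log axis of CPM, with MePipHCA left of vehicle for each gene and a star at an adjusted p below 0.05. The 18 genes left of the dotted line are cholesterol enzymes; for the 15 starred among them both MePipHCA dots lie below both vehicle dots, as they do for Insig1, Stard4 and Abca1. Of all 13176 genes 21.5% had both MePipHCA values below both vehicle values and 22.1% had both above.

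Promoters of Hmgcs1 and Lss are shown because they are the enzymes with the largest fall in CPM and the largest fall in log2 fold change. Both are RefSeq promoters of the build GRCm38.p6, from 250 bases before to 50 after the start of the gene, and both genes lie on the plus strand. Capitals mark the sterol regulatory element TCACNCCAC (N is any base) and the CCAAT box CCAAT, each searched on both strands, so that ATTGG is a CCAAT box read from the other strand. The first lies at chr13:119690101-119690400 and the second at chr10:76531355-76531654.
Hmgcs1: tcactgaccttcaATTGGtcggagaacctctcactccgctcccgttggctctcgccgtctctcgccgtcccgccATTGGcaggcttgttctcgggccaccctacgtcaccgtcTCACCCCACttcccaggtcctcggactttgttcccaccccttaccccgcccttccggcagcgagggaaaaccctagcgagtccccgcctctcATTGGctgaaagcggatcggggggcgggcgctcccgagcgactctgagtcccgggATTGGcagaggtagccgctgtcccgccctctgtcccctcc
Lss: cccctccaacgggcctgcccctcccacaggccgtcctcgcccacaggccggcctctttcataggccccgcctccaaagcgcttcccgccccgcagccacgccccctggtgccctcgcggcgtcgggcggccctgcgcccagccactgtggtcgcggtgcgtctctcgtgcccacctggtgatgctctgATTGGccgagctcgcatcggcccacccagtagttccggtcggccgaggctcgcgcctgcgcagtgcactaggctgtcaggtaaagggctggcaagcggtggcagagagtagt
The Hmgcs1 promoter held 1 sterol regulatory element and 4 CCAAT boxes, and that of Lss held 1 CCAAT box. Of the 20 enzymes 15 had a promoter in the table, and 14 of these (93.3%) held a CCAAT box, against 43.0% of 9940 tested genes and 41.1% of all 27025 genes with a promoter. Among genes that fell with MePipHCA 79 of 136 with a promoter (58.1%) held one, and among genes that rose 35 of 88 (39.8%). The element TCACNCCAC was in 1 of the 15 enzyme promoters (6.67%), that of Hmgcs1, against 1.5% of tested genes, 6 of 88 genes that rose (6.82%) and 4 of 136 that fell (2.94%). These matches describe letters in a window and show no binding.

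Other SREBP-2 targets fell for 3 members. Of 8 measured genes 3 fell, none rose, all 8 had a log2 fold change below 0, and the median was −0.31. Insig1, which keeps SREBP from leaving the endoplasmic reticulum and is itself its target, had 58.6 and 67.1 CPM with MePipHCA, against 129 and 130.1 CPM with vehicle. Both MePipHCA libraries held about the same low level, and the change was −1.04 ± 0.10 (adjusted p = 8.7e-08). Stard4, a carrier of cholesterol inside the cell, changed by −0.64 ± 0.14 (adjusted p = 0.011), a call lost without MePipHCA replicate 1 (0.0775), MePipHCA replicate 2 (0.159) or vehicle replicate 1 (0.161). Srebf2 itself (−0.26 ± 0.10) was not called. None of 8 genes of the SREBP processing machinery was called, with a median of 0.006: the escort Scap had a log2 fold change of 0.04 ± 0.10 and the proteases Mbtps1 and Mbtps2 had −0.05 ± 0.11 and 0.20 ± 0.11.

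No LXR target rose. Of 14 measured genes 1 fell, with a median log2 fold change of −0.12, and the gene that fell was Abca1, which loads cholesterol onto lipoprotein particles (chromosome 4, 53030789 to 53159895, mm10). Abca1 had 100.2 and 103 CPM with MePipHCA, against 190.0 and 158 CPM with vehicle. Both MePipHCA values were lower, with a log2 fold change of −0.78 ± 0.09 (adjusted p = 4.46e-06), and this call held in all 11 alternative settings, with 0.000835 as the highest adjusted p. Abcg1, a further cholesterol exporter, and Mylip, a ubiquitin ligase, were near the detection limit. Abcg1 had 0.0827 and 0.318 CPM with MePipHCA, against 0.311 and 0.302 CPM with vehicle, and its 95% interval of the log2 fold change, −2.35 to 1.41, allows a large change in either direction. For Mylip, with 0.248 and 1.11 CPM with MePipHCA, against 0.778 and 0.605 CPM with vehicle, this interval was −1.75 to 1.78, and neither was called. Srebf1 had 75.6 and 80.3 CPM with MePipHCA, against 96.2 and 82.8 CPM with vehicle, a change of −0.21 ± 0.11 that did not pass the test (adjusted p = 0.466, 95% interval −0.42 to 0.01). Abcg5 and Abcg8, which form the sterol exporter of bile, had −1.42 ± 0.43 and −0.72 ± 0.49, and Lpcat3, which remodels membrane phospholipids, had −0.07 ± 0.08; none was called. Fits of the 4 libraries alone, or without the filter on low counts, called 2 LXR targets down.

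Fatty acid genes fell in part. Of 16 genes of fatty acid synthesis and its regulator SREBP-1c 5 fell, none rose, and the median was −0.38. Scd2, a stearoyl-CoA desaturase that is minor in liver, had 3.47 and 2.6 CPM with MePipHCA, against 9.95 and 10.6 CPM with vehicle. Neither MePipHCA value came near the vehicle values, and the change was −1.78 ± 0.24 (adjusted p = 2.43e-05). Its liver paralog Scd1 had 971 and 944 CPM with MePipHCA, against 1112 and 1093 CPM with vehicle, a difference of −0.20 ± 0.07 that was not called (adjusted p = 0.202). Fasn, the fatty acid synthase, had 363 and 352 CPM with MePipHCA, against 381 and 345 CPM with vehicle, with overlapping groups and a 95% interval of −0.18 to 0.14. The desaturases of polyunsaturated fatty acids Fads2 (−0.62 ± 0.09) and Fads1 (−0.42 ± 0.08) fell, as did Acss2, which makes acetyl-CoA from acetate (−0.73 ± 0.13), and Acly, which makes it from citrate (−0.37 ± 0.08). Without vehicle replicate 1 only 3 of these 5 were called (Acss2 at an adjusted p of 0.0571 and Fads1 at 0.0855 were not). Without MePipHCA replicate 2 Fads1 (0.118) and Acly (0.124) were lost, and without MePipHCA replicate 1 Acly (0.0569). Of 18 triglyceride and lipid droplet genes 2 fell, with a median of 0.005: Lpin1, a phosphatidate phosphatase, had 34.6 and 32.4 CPM with MePipHCA, against 75.8 and 64.7 CPM with vehicle and changed by −1.08 ± 0.13, and the acyltransferase Gpam changed by −0.72 ± 0.10. None of 14 genes of cholesterol esterification and sterol transfer was called, with a median of −0.08.

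Genes that mark the differentiated hepatocyte and its secreted proteins were lower for some members. Of 10 hepatocyte markers 4 fell and none rose (median −0.27), among them Fgb, a fibrinogen chain (−0.58 ± 0.09), and Hnf4a, a factor that maintains hepatocyte identity (−0.41 ± 0.08). In these bulk samples fewer cells of a type and less RNA per cell cannot be told apart. The Hnf4a call was lost without MePipHCA replicate 1 (adjusted p = 0.0548) or 2 (0.0568). Alb was not called (−0.05 ± 0.09). Of 22 acute phase genes 5 fell and none rose (median −0.22). Hp, the haemoglobin scavenger haptoglobin, had 255 and 237 CPM with MePipHCA, against 554 and 411 CPM with vehicle, a change of −0.98 ± 0.10 (adjusted p = 7.59e-07) with no overlap. Cp, the copper carrier ceruloplasmin, had 742 and 714 CPM with MePipHCA, against 1171 and 1245 CPM with vehicle, a change of −0.73 ± 0.09, and Fga, a further fibrinogen chain, changed by −0.63 ± 0.10. Among genes called, the largest falls by difference in CPM were in Sprr1a, a cornified envelope protein that was among the most abundant genes of these cultures, Ahsg, Apoa1, Fgb and Hmgcs1. Sprr1a had 4059 and 4486 CPM with MePipHCA, against 5185 and 6262 CPM with vehicle (−0.42 ± 0.09), and its call was lost without MePipHCA replicate 1 (adjusted p = 0.144) or vehicle replicate 2 (0.178) and with DESeq2 (0.0741). Ahsg, the plasma protein fetuin-A, had 4347 and 4165 CPM with MePipHCA, against 5905 and 5268 CPM with vehicle (−0.39 ± 0.08), a call lost without MePipHCA replicate 2 (0.117) or vehicle replicate 1 (0.142). Of 12 apolipoprotein genes 2 fell, Apoa1 (−0.29 ± 0.08), which was not called without any one of the 4 libraries (0.0643 to 0.237), and Apoc2 (−0.51 ± 0.10), which shares 79.5% of its exon bases with another gene model and was lost without MePipHCA replicate 1 (0.114).

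Of 17 cytochrome P450 genes 3 fell, all 17 had a log2 fold change below 0 and the median was −0.33. Cyp2c70, which hydroxylates bile acids in mice, had 81.3 and 81.8 CPM with MePipHCA, against 126 and 118 CPM with vehicle (−0.58 ± 0.11, adjusted p = 0.00214). The other calls were Cyp2d26 (−0.55 ± 0.14), lost without MePipHCA replicate 1 (0.0548), MePipHCA replicate 2 (0.448) or vehicle replicate 1 (0.368), and Cyp2e1 (−0.41 ± 0.10), lost without any one of the 4 libraries (0.124 to 0.288). Without MePipHCA replicate 1, MePipHCA replicate 2 or vehicle replicate 1 this left 1 of the 3 calls. Of 5 targets of the aryl hydrocarbon receptor 1 rose, Tiparp (0.44 ± 0.09), a call lost without MePipHCA replicate 1 (0.147) or vehicle replicate 1 (0.0855). Of 21 NRF2 targets 4 fell (median −0.20). Gclc, the rate-limiting enzyme of glutathione synthesis, had 417 and 359 CPM with MePipHCA, against 712 and 621 CPM with vehicle, and Hmox1, which breaks down haem, had 704 and 665 CPM with MePipHCA, against 987 and 1036 CPM with vehicle. Both genes were lower in both MePipHCA libraries, with log2 fold changes of −0.78 ± 0.11 and −0.56 ± 0.08. G6pdx (−0.52 ± 0.13) and Pgd (−0.33 ± 0.09), which make NADPH in the pentose phosphate pathway, were also called but lost the call without any one of the 4 libraries (adjusted p 0.0548 to 0.424 and 0.0941 to 0.342). The NRF2 target Nqo1 (0.02 ± 0.24) was not called. Of 18 glycolysis genes 3 fell (median −0.22), and the liver pyruvate kinase Pklr had 143 and 151 CPM with MePipHCA, against 229.6 and 211 CPM with vehicle (−0.58 ± 0.10). The others that fell were the glucose transporter Slc2a2 (−1.19 ± 0.24), lost without MePipHCA replicate 2 (0.0736) or vehicle replicate 1 (0.328) and with DESeq2 (0.0662), and the pyruvate kinase Pkm (−0.45 ± 0.09), lost without MePipHCA replicate 1 (0.142). Igfbp1, an insulin-repressed binding protein of insulin-like growth factors, had 863 and 864 CPM with MePipHCA, against 1329 and 1262 CPM with vehicle (−0.59 ± 0.11). It was the 1 call among 10 gluconeogenesis genes, all of which had a log2 fold change below 0, with a median of −0.60. Some of these genes had few reads: Pck1 and G6pc stayed under 5 CPM in all 4 libraries. None of 13 PXR and CAR targets, 18 urea cycle genes, 19 complement genes or 18 respiratory chain genes was called, and 1 each fell of 17 bile acid genes (Abcb4), 24 PPAR-alpha targets (Vnn1) and 16 coagulation factors (Serpinf2). Abcb4, a phospholipid exporter of bile, was lost without MePipHCA replicate 1 (adjusted p = 0.0592) or vehicle replicate 1 (0.121). Vnn1, a pantetheinase, was lost without MePipHCA replicate 1 (0.0526), MePipHCA replicate 2 (0.468) or vehicle replicate 2 (0.442), and Serpinf2, which inhibits plasmin, without MePipHCA replicate 1 (0.115), MePipHCA replicate 2 (0.129) or vehicle replicate 1 (0.106).

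Among 18 cell cycle genes 3 fell and none rose (median −0.39). Top2a, the topoisomerase of dividing cells, had 8.85 and 9.85 CPM with MePipHCA, against 21 and 23.6 CPM with vehicle, a change of −1.24 ± 0.21 (adjusted p = 0.000636) with both MePipHCA values lower. Mki67, the proliferation marker, had 11.9 and 10.4 CPM with MePipHCA, against 21.9 and 21.9 CPM with vehicle (−0.98 ± 0.20), and Rrm2, a ribonucleotide reductase subunit, had 32.7 and 43.1 CPM with MePipHCA, against 63.9 and 59.6 CPM with vehicle (−0.70 ± 0.13). The Mki67 call was lost without MePipHCA replicate 2 (adjusted p = 0.120) and that of Rrm2 without MePipHCA replicate 1 (0.115). In the inflammatory list 2 of 12 genes fell, the chemokine Ccl2 (−0.56 ± 0.14) and the adhesion molecule Icam1 (−0.54 ± 0.11), and no interferon gene of 18 was called. Ccl2 was not called without MePipHCA replicate 2 (0.569) or vehicle replicate 1 (0.370), nor Icam1 without MePipHCA replicate 1 (0.0632) or 2 (0.0917) or vehicle replicate 1 (0.0671).

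**Figure D3:**
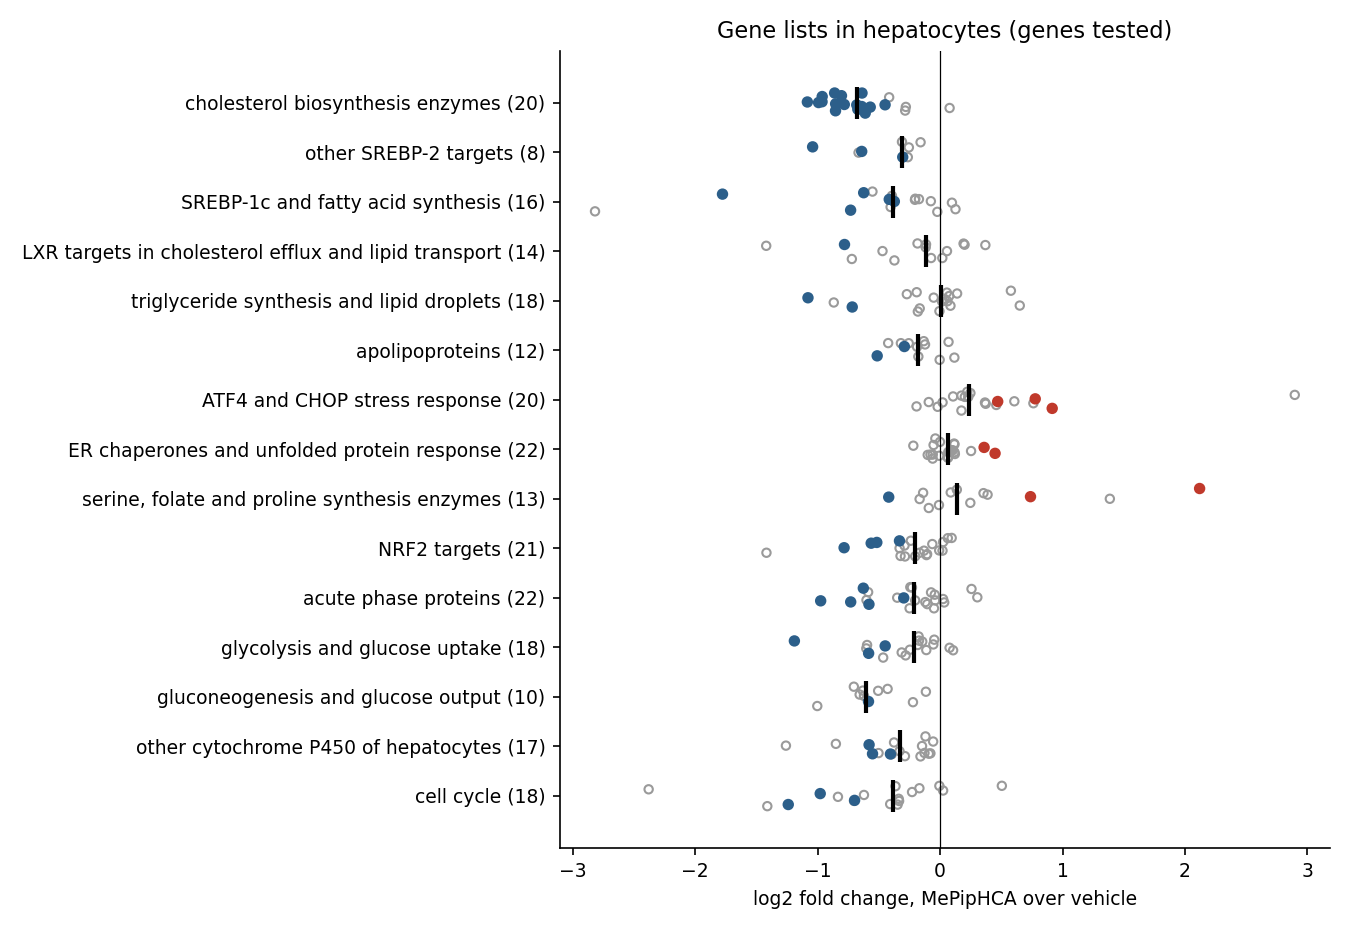
Each circle is a gene of the list named at the left, with the number tested in brackets, placed by its log2 fold change of MePipHCA over vehicle. Filled circles passed the test (blue fell, red rose) and black bars are medians, at −0.68 for cholesterol biosynthesis enzymes and 0.24 for ATF4 and CHOP genes.

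Rising genes included part of the ATF4 program. Of 20 genes of the ATF4 and CHOP stress response 3 rose, none fell, 17 had a log2 fold change above 0, and the median was 0.24. Trib3, a pseudokinase induced by ATF4 and CHOP, had 119.8 and 102 CPM with MePipHCA, against 70.8 and 57.6 CPM with vehicle. Its lowest MePipHCA value was above its highest vehicle value, a change of 0.78 ± 0.13 (adjusted p = 0.00048). Ddit3, which encodes CHOP, had 57.2 and 35.5 CPM with MePipHCA, against 23.95 and 24.9 CPM with vehicle, and the change of 0.92 ± 0.19 rested on MePipHCA replicate 1, without which it was 0.54 (adjusted p = 0.360). Without vehicle replicate 1 Ddit3 also missed the threshold (0.0972). Cth, which makes cysteine, changed by 0.47 ± 0.10 and was lost without MePipHCA replicate 1 (0.0601), MePipHCA replicate 2 (0.0607) or vehicle replicate 2 (0.111). Asparagine synthetase, Asns, had 207 and 192 CPM with MePipHCA, against 176 and 132 CPM with vehicle and was not called (0.37 ± 0.11), like Atf4 itself (0.17 ± 0.09). None of 17 cytosolic tRNA synthetases and 14 amino acid transporters passed, with medians of 0.13 and 0.12.

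Among one-carbon and serine enzymes Aldh1l2 and Phgdh rose, and so did Pck2, a mitochondrial enzyme outside these pathways. Aldh1l2, the mitochondrial formyltetrahydrofolate dehydrogenase, had 14.8 and 20.97 CPM with MePipHCA, against 5.29 and 2.57 CPM with vehicle. Both MePipHCA libraries were well above both vehicle libraries, and its log2 fold change of 2.12 ± 0.32 (adjusted p = 0.000152) was the largest among genes that rose. Its cytosolic counterpart Aldh1l1 fell (−0.42 ± 0.11), a call lost without MePipHCA replicate 1 (0.251) or 2 (0.173) or vehicle replicate 1 (0.371). Phgdh, the first enzyme of serine synthesis, changed by 0.74 ± 0.17 and was lost without any one of the 4 libraries (0.0875 to 0.128). Pck2, the mitochondrial phosphoenolpyruvate carboxykinase, had 76.2 and 83.0 CPM with MePipHCA, against 42.5 and 32.2 CPM with vehicle, a change of 1.07 ± 0.13 (adjusted p = 4.73e-06) with no overlap. In the whole list of 13 serine, folate and proline enzymes 2 rose, Aldh1l2 and Phgdh, and 1 fell, Aldh1l1, with a median of 0.14. The other enzymes of the list were not called. In the annotation 17.3% of the exon bases of Aldh1l2 lie opposite another gene.

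Of 22 chaperone and unfolded protein genes of the endoplasmic reticulum 2 rose, none fell, and the median was 0.07. Hspa5, the chaperone BiP, had 1258 and 1188 CPM with MePipHCA, against 968 and 939 CPM with vehicle, a change of 0.36 ± 0.07 that was lost without MePipHCA replicate 1 (adjusted p = 0.146) or vehicle replicate 2 (0.0576). Xbp1, the transcription factor of the unfolded protein response, had 257 and 235 CPM with MePipHCA, against 190.1 and 169.6 CPM with vehicle (0.45 ± 0.09), lost without the same libraries (0.144 and 0.113). Promoters of Trib3 and Hspa5 are printed as those of the stress genes that rose and hold the element searched. Capitals mark TGATGNAA, the C/EBP-ATF response element that ATF4 binds, in Trib3 (minus strand, chr2:152344011-152344310), and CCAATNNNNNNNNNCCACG, the endoplasmic reticulum stress response element, in Hspa5 (plus strand, chr2:34771840-34772139), both in GRCm38.p6 from RefSeq and both searched on either strand. The second element contains a CCAAT box.
Trib3: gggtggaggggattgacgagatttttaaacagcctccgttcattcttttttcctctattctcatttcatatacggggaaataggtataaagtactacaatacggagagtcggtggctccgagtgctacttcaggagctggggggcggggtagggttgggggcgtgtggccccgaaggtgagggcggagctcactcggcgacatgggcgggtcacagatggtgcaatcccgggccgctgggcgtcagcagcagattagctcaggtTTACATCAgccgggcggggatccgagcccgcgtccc
Hspa5: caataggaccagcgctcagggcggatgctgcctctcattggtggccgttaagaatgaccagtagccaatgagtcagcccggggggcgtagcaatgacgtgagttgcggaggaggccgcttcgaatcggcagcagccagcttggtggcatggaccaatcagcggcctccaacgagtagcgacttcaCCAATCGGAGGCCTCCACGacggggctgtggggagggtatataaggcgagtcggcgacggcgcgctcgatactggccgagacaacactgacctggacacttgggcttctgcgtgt
TGATGNAA was in 8 of the 18 ATF4 and CHOP genes with a promoter (44.4%), against 2.78% of tested genes, in 5 of 88 genes that rose (5.68%) and in 6 of 136 that fell (4.41%). The endoplasmic reticulum stress element was in 8 of 19 chaperone and unfolded protein genes (42.1%), against 0.181% of tested genes, while 1 of the 88 genes that rose held it (1.14%) and 0 of the 136 that fell.

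The lowest adjusted p of the comparison was that of a gene outside the sterol lists, Plat, tissue plasminogen activator (chromosome 8, 22757722 to 22782848, mm10). It had 40.8 and 50.5 CPM with MePipHCA, against 153 and 139 CPM with vehicle, with no overlap between the groups and a log2 fold change of −1.67 ± 0.12 (adjusted p = 9.03e-10). Id2, an inhibitor of basic helix-loop-helix factors, had 6.29 and 9.8 CPM with MePipHCA, against 30.3 and 24.8 CPM with vehicle (−1.76 ± 0.23, adjusted p = 1.39e-05). Of its relatives Id1 (−0.66 ± 0.25) and Id3 (−0.55 ± 0.16) were not called. Inhba, the beta A subunit of activins, had 105 and 128 CPM with MePipHCA, against 35.4 and 59.4 CPM with vehicle, and its rise of 1.33 ± 0.16 (adjusted p = 5.7e-06) was larger than the gap between the vehicle replicates. Thbs1, the matrix protein thrombospondin 1, had 26.1 and 33.5 CPM with MePipHCA, against 49.4 and 59.0 CPM with vehicle (−0.84 ± 0.15). Tff1, a secreted trefoil peptide, had 5.71 and 8.74 CPM with MePipHCA, against 20.7 and 20.3 CPM with vehicle (−1.48 ± 0.23), and LOC102631757, whose span overlaps that of Tff1 on chromosome 17 so that reads may be shared, changed by −1.65 ± 0.31. Barx2 (−1.49 ± 0.34), Spns2, a sphingosine-1-phosphate exporter (−1.55 ± 0.34), and Ube2c, a ubiquitin enzyme of mitosis (−1.60 ± 0.42), fell at under 10 CPM, as did Leap2, a liver peptide that opposes ghrelin (−3.02 ± 0.81, 0.414 and 0.371 CPM with MePipHCA, against 3.81 and 2.57 CPM with vehicle). Barx2 was lost without MePipHCA replicate 2 (adjusted p = 0.314) or vehicle replicate 1 (0.121), Spns2 without the same libraries (0.261 and 0.0934), and Ube2c and Leap2 without any one of the 4 (0.0608 to 0.350 and 0.111 to 0.410). Ankrd37, a hypoxia-induced gene, had 6.37 and 6.57 CPM with MePipHCA, against 16.4 and 25.8 CPM with vehicle (−1.68 ± 0.39), a call lost with DESeq2 (0.185) and without MePipHCA replicate 1 (0.105) or 2 (0.120) or vehicle replicate 2 (0.166).

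Further genes that rose by more than 1 log2 unit were Adamts6, a matrix protease (1.89 ± 0.49), Ckap4, a membrane protein of the endoplasmic reticulum (1.56 ± 0.29), Fosb, an AP-1 subunit (1.30 ± 0.27), Lrrc8c, a subunit of volume-regulated anion channels (1.24 ± 0.24), Cdr2 (1.20 ± 0.27), Kdelr3, a receptor that returns proteins to the endoplasmic reticulum (1.08 ± 0.24), Nrk (1.05 ± 0.27) and Fam83a (1.04 ± 0.22). Ckap4 had 15.2 and 20.3 CPM with MePipHCA, against 6.77 and 5.14 CPM with vehicle, with no overlap, and was lost without MePipHCA replicate 2 (adjusted p = 0.0825). Each of the others was lost without at least 1 library: Lrrc8c without vehicle replicate 1 (0.132), Fosb without MePipHCA replicate 2 (0.283) or vehicle replicate 1 (0.143), Kdelr3 without MePipHCA replicate 2 (0.169) or vehicle replicate 2 (0.143), and Adamts6 without any one of the 4 (0.0829 to 0.360). Cdr2 was lost without MePipHCA replicate 2 (0.180), vehicle replicate 1 (0.121) or vehicle replicate 2 (0.0852), and Nrk and Fam83a without MePipHCA replicate 1 (0.0982 and 0.0601), MePipHCA replicate 2 (0.274 and 0.0633) or vehicle replicate 1 (0.425 and 0.191). Among genes called, the largest rises by difference in CPM were in Rn45s, a ribosomal RNA precursor, Ctsl, Igfbp3, Rnf11 and Hspa5. Rnf11, a ubiquitin ligase, had 1156 and 1164 CPM with MePipHCA, against 846 and 817 CPM with vehicle (0.48 ± 0.08, adjusted p = 0.000341). Ctsl, a lysosomal protease, had 2235 and 2054 CPM with MePipHCA, against 1834 and 1655 CPM with vehicle (0.30 ± 0.07), and Igfbp3, a carrier of insulin-like growth factors, had 1308 and 1434 CPM with MePipHCA, against 990.2 and 1059.9 CPM with vehicle (0.42 ± 0.09). Rn45s, at 1441 and 2025 CPM with MePipHCA, against 1414 and 1194 CPM with vehicle, was high in 1 MePipHCA library, without which (MePipHCA replicate 2) the change was 0.14 (0.807), and it was also not called without vehicle replicate 2 (0.410) or with DESeq2 (0.308). Ctsl was lost without MePipHCA replicate 1 (0.404), MePipHCA replicate 2 (0.0607) or vehicle replicate 2 (0.309), and Igfbp3 without MePipHCA replicate 2 (0.155) or vehicle replicate 1 (0.0860). Gadd45a, a growth arrest gene, had 126 and 127 CPM with MePipHCA, against 83.4 and 78.3 CPM with vehicle (0.64 ± 0.12). Of 13 p53 targets 1 rose, Gadd45a, and 1 fell, Eda2r (−0.71 ± 0.19), with a median of −0.04, and Eda2r was lost without MePipHCA replicate 1 (0.442), vehicle replicate 1 (0.253) or vehicle replicate 2 (0.0984). Gpnmb, a lysosomal glycoprotein of macrophages and other cells, had 2.15 and 2.91 CPM with MePipHCA, against 32.3 and 1.97 CPM with vehicle: its change of −2.78 ± 0.66 rested on vehicle replicate 1, without which the value was 0.37 (0.949), and it was also not called without MePipHCA replicate 1 (0.171) or 2 (0.119) or with DESeq2 (0.255).

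MePipHCA was then set against DMHCA, the other cholenamide, at the same dose of 1 uM. DMHCA is the dimethyl amide and MePipHCA the methylpiperidine amide of the same steroid acid. Of 13176 genes 170 were higher (1.29%) and 265 lower (2.01%), 435 in all (3.3%), with MePipHCA than with DMHCA, and this and the comparison with vehicle share the MePipHCA libraries. DMHCA against vehicle gave 0 calls with edgeR and 0 with DESeq2. With edgeR 615 of 13176 genes had an unadjusted p below 0.05. Such a threshold passes a share of about 0.05 of genes where none changes. Sterol genes were among those that differed: 17 of the 20 cholesterol enzymes were lower with MePipHCA (median −0.82) and none higher. Hmgcs1 had 637 and 697 CPM with MePipHCA, against 1279 and 1443 CPM with DMHCA, a difference of −1.03 ± 0.08 (adjusted p = 1.74e-09). The groups did not overlap, and the same was true of Insig1, with 58.6 and 67.1 CPM with MePipHCA, against 126 and 124 CPM with DMHCA (−0.99 ± 0.10, adjusted p = 1.14e-07). Sqle differed by −0.49 ± 0.09 (adjusted p = 0.000834).

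Abca1 separated these cholenamides as well, with 100.2 and 103 CPM with MePipHCA, against 166 and 163 CPM with DMHCA. Both MePipHCA values were lower, with a difference of −0.70 ± 0.09 (adjusted p = 1.58e-05). Plat (−1.56 ± 0.12), Scd2 (−1.74 ± 0.23), Id2 (−1.40 ± 0.22) and Tff1 (−1.66 ± 0.22) were lower with MePipHCA, and Aldh1l2 (2.32 ± 0.32), Inhba (1.28 ± 0.16) and Mir17hg, the host transcript of a microRNA cluster (1.33 ± 0.23), were higher. Mir17hg had 15.6 and 12.9 CPM with MePipHCA, against 4.96 and 6.31 CPM with DMHCA. In vehicle it stood at 11.98 and 13.6 CPM, so the DMHCA libraries were the low ones. Star, which carries cholesterol into mitochondria, had 3.81 and 3.39 CPM with MePipHCA, against 0.802 and 0.723 CPM with DMHCA (2.22 ± 0.60, adjusted p = 0.0347) and was not called without any one of the 4 libraries (0.0990 to 0.166). Not shown to differ were Srebf1 (−0.35 ± 0.10, unadjusted 95% interval −0.56 to −0.13), Scd1 (−0.23 ± 0.07, interval −0.38 to −0.08), Trib3 (0.41 ± 0.13, interval 0.15 to 0.67), Abcg1 (interval −3.08 to 0.02) and Mylip (interval −1.61 to 1.83). Srebf1 passed the threshold without DMHCA replicate 2 (adjusted p = 0.00614) and Scd1 without DMHCA replicate 1 (0.0331), and both passed with DESeq2 (0.0349 and 0.0433). Fasn was lower with MePipHCA (−0.32 ± 0.08, adjusted p = 0.0153), a call lost without MePipHCA replicate 1 (0.110) or 2 (0.171) or DMHCA replicate 1 (0.114). Single libraries moved the counts, with 55 higher and 122 lower without MePipHCA replicate 1, 68 and 142 without MePipHCA replicate 2, 68 and 169 without DMHCA replicate 1 and 311 and 468 without DMHCA replicate 2.

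Against T0901317 at 1 uM, 414 genes were higher (3.14%) and 383 lower (2.91%), 797 in all (6.05%), with MePipHCA. LXR and fatty acid genes stood far apart: 14 of 16 fatty acid genes (median −0.89) and 4 of 14 LXR targets (median −0.59) were lower with MePipHCA. Abca1 had 100.2 and 103 CPM with MePipHCA, against 856 and 996 CPM with T0901317, a difference of −3.19 ± 0.10 (adjusted p = 3.77e-20). Scd1 had 971 and 944 CPM with MePipHCA, against 5480.1 and 6348 CPM with T0901317 (−2.63 ± 0.08), Srebf1 differed by −1.48 ± 0.10 and Fasn by −1.11 ± 0.08. Abcg1 had 0.0827 and 0.318 CPM with MePipHCA, against 7.45 and 6.3 CPM with T0901317. In each of these genes both MePipHCA libraries lay below both T0901317 libraries, and Abcg1 differed by −4.91 ± 0.66 on counts of 1 and 6 reads with MePipHCA. Of the cholesterol enzymes 18 of 20 were lower with MePipHCA (median −0.64), with Insig1 at −1.61 ± 0.10 and Sqle at −0.58 ± 0.09. Thbs1 (−2.01 ± 0.14) was lower as well, while Ckap4 (1.63 ± 0.29), Ltbp2 (1.91 ± 0.37) and Fam83a (2.00 ± 0.23) were higher with MePipHCA. Against vehicle Ltbp2 was called with neither ligand, at 0.73 ± 0.35 with MePipHCA and −1.18 ± 0.39 with T0901317. Trib3 was not shown to differ (0.19 ± 0.13, adjusted p = 0.435, 95% interval −0.06 to 0.45). With MePipHCA replicate 1 left out 133 genes were higher and 165 lower, 141 and 175 with MePipHCA replicate 2 left out, 226 and 256 with T0901317 replicate 1 left out and 165 and 202 with T0901317 replicate 2 left out.

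Each ligand was also set against the same 2 vehicle libraries, so the values that follow share their controls. For Abca1 the log2 fold changes were −0.78 ± 0.09 with MePipHCA, −0.09 ± 0.09 with DMHCA, 0.21 ± 0.09 with desmosterol, 2.24 ± 0.09 with GW3965 and 2.41 ± 0.09 with T0901317. Insig1 had −1.04 ± 0.10, −0.05 ± 0.10, −0.48 ± 0.10, 0.67 ± 0.10 and 0.57 ± 0.10 in that order, called in all but DMHCA. Hmgcs1 had −0.96 ± 0.08, 0.07 ± 0.08, −0.28 ± 0.08, −0.11 ± 0.08 and −0.18 ± 0.08, and of these only the value for MePipHCA was called. Some changes were called in the same direction with T0901317. Trib3 (0.58 ± 0.13), Pck2 (0.59 ± 0.13) and Cth (0.39 ± 0.10) rose with it. Plat (−0.57 ± 0.12), Hp (−0.45 ± 0.10) and Cp (−0.51 ± 0.09) fell with T0901317 too. So did Fga (−0.62 ± 0.10), Cyp2c70 (−0.51 ± 0.11) and Slc2a2 (−0.98 ± 0.24). Others ran the opposite way, as Scd2 (2.10 ± 0.20) and Fads2 (0.65 ± 0.09) rose with T0901317. Desmosterol was given at 10 uM and is not compared with the ligands at 1 uM.

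**Figure D4:**
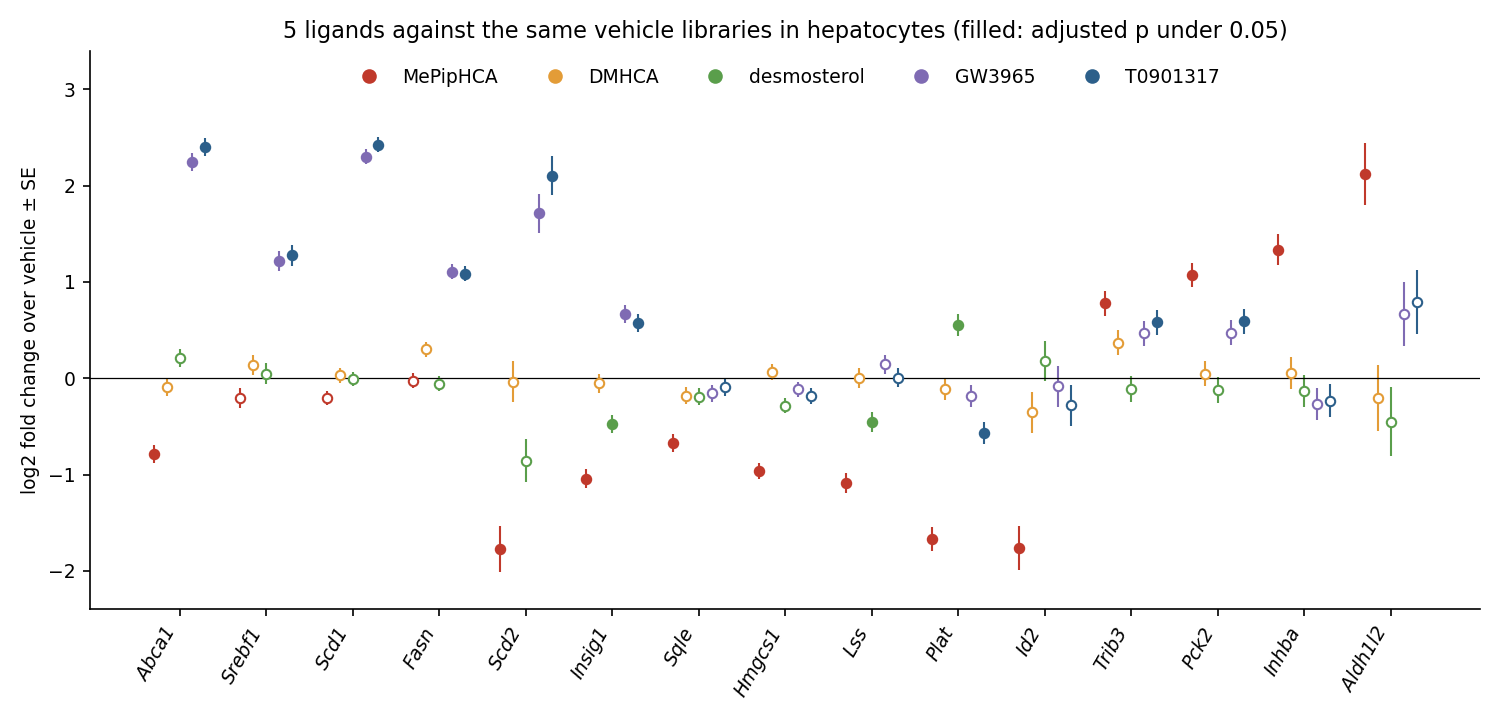
Points are log2 fold changes over vehicle with their SE for 15 genes and 5 ligands that share 2 vehicle libraries, filled at an adjusted p below 0.05; desmosterol was at 10 uM and the others at 1 uM. Among the 4 ligands at 1 uM, MePipHCA has the lowest point for Abca1, Insig1, Sqle, Hmgcs1, Lss, Plat and Id2 and the highest for Inhba and Aldh1l2.

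The MePipHCA change was compared between hepatocytes and macrophages by testing the interaction of ligand and cell type in a joint fit (30 libraries). Each group had 2 libraries in hepatocytes and 3 in macrophages. Hepatocytes were in Hepatozyme and macrophages in RPMI-1640. Cell type, medium and the dates of the sample titles cannot be told apart in this comparison. Of 13700 genes 633 (4.62%) had a change that was higher in hepatocytes and 691 (5.04%) one that was lower, 1324 in all (9.66%). Abca1 moved in opposite directions, with a log2 fold change of −0.80 ± 0.08 in hepatocytes and 4.19 ± 0.07 in macrophages, a difference of −4.99 ± 0.11 (adjusted p = 1.24e-33). Srebf1 changed by −0.22 ± 0.09 in hepatocytes and 0.89 ± 0.08 in macrophages and Scd1 by −0.22 ± 0.08 and 0.84 ± 0.10, each with a lower change in hepatocytes. Of 20 cholesterol enzymes 18 had a higher change in hepatocytes and 1 a lower one, and Sqle changed by −0.69 ± 0.09 in hepatocytes and −3.33 ± 0.10 in macrophages. The stress lists ran the other way, with 21 of 22 chaperone and unfolded protein genes, 9 of 20 ATF4 and CHOP genes and 12 of 17 tRNA synthetases having a lower change there and none a higher one. Chac1, a glutathione-degrading target of ATF4, changed by 0.44 ± 0.14 in hepatocytes and 4.24 ± 0.27 in macrophages. For Fasn no difference was shown (−0.03 ± 0.11, adjusted p = 0.956).

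**Figure D5:**
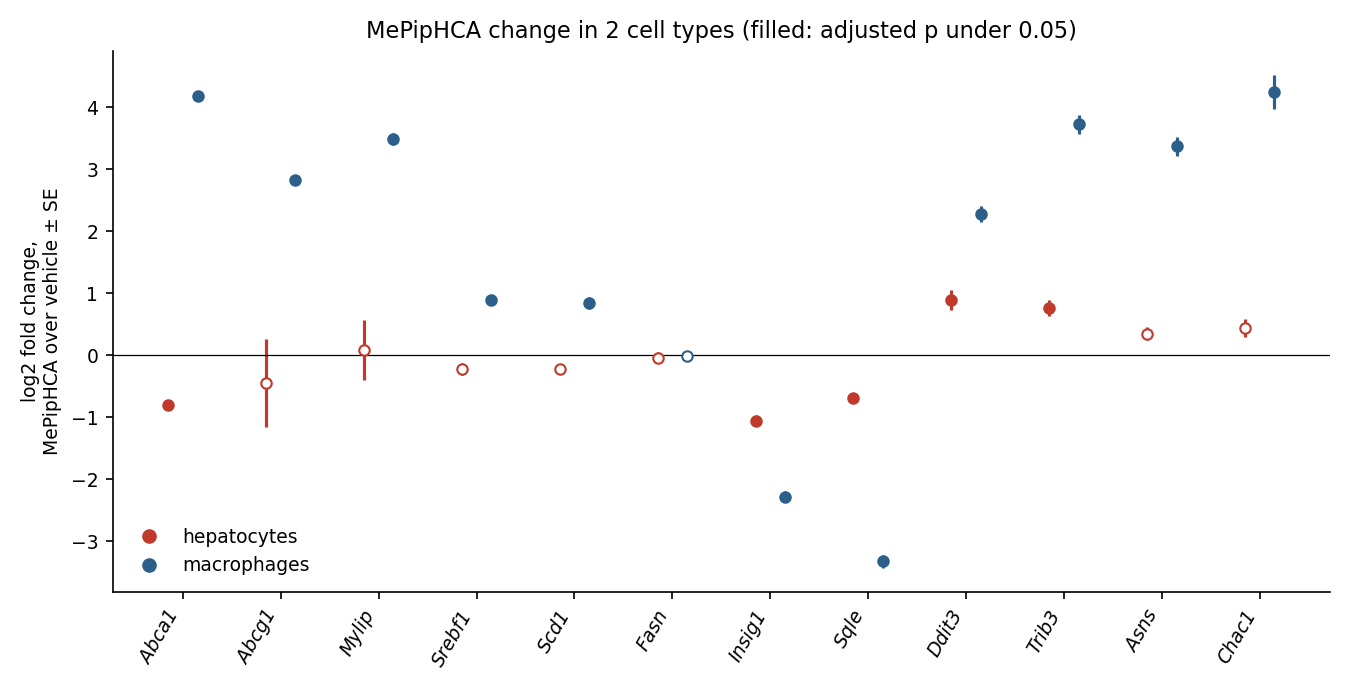
Points are log2 fold changes of MePipHCA over vehicle with their SE from the fit of all 30 libraries, hepatocytes left of macrophages for each gene and filled at an adjusted p below 0.05. Abca1 lies below 0 in hepatocytes and above 4 in macrophages, and the sterol genes Insig1 and Sqle lie lower in macrophages.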

How the data were processed

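RNA was measured in 12 hepatocyte libraries (6 groups of 2) and 18 macrophage libraries (6 groups of 3). The deposited values were exon read counts per gene, made by the authors with STAR and HOMER on mm10, per the submitters' processing notes, which give no versions. The authors also deposited RPKM values per gene, used only to compare levels between genes. No strand option is given in the file headers.

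Counts were analysed in R 4.3.3 with edgeR 4.0.16: filterByExpr, TMM scaling and a quasi-likelihood fit of all 12 hepatocyte libraries, with Benjamini-Hochberg adjustment over 13176 genes, a threshold of 0.05 and no fold threshold. The residual degrees of freedom were 6. A joint fit of 30 libraries, joined by symbol, tested the difference between cell types over 13700 genes. Standard errors came from the F statistic, so they rest on the spread estimated over all libraries of the fit. MePipHCA was compared with 2 further ligands at the same dose, DMHCA and T0901317. On data simulated for MePipHCA against vehicle (12771 genes), 91% of genes changed by a log2 fold change of 1 were recovered and 36% of those changed by 0.585. Of the simulated calls 7.97% were of unchanged genes. The simulation gave every gene the same spread and changed only genes above a read limit. These shares may therefore not hold for real genes with a larger spread or fewer reads.

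Genes named were set genes, up to 4 called members per list with the largest change, the 10 called genes each way with the largest fold change (at least 1 CPM in the higher group, replicates not overlapping) and the 5 called genes each way with the largest difference in CPM. A few genes that this rule or the lists name are not reported here, though they stay in all counts and medians. Other genes named, with those not called, were taken from the lists or chosen after their values were seen. The gene lists and comparisons were chosen with earlier results of these data known. Alternatives were DESeq2 1.42.0, other size factors, no filter, libraries thinned to 1 depth, only the libraries compared, a replicate block and leaving out each library. Leaving out desmosterol replicate 1 with T0901317 replicate 2, which stood farthest from the rest, was chosen after seeing the data.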

Additional observations from a re-analysis of the deposited data

Results flagged for a closer look

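The MePipHCA change differed between hepatocytes and macrophages, by the interaction in the joint edgeR quasi-likelihood fit, for 11 of 12 set genes. Over all 13700 genes tested this share was 9.66%. The 12 genes were a set panel and not a sample of all genes, and the comparisons were chosen with earlier results of these data known. Each value is the log2 fold change in hepatocytes minus that in macrophages. It was below 0 for the LXR targets Abca1 (−4.99), Abcg1 (−3.27), Mylip (−3.41), Srebf1 (−1.11) and Scd1 (−1.06). It was above 0 for the sterol genes Sqle (2.64) and Insig1 (1.23). The stress genes Ddit3 (−1.39), Trib3 (−2.96), Asns (−3.02) and Chac1 (−3.80) also had a lower change in hepatocytes. Adjusted p-values ran from 1.24e-33 for Abca1 to 0.0054 for Abcg1, whose call was lost at equal depth (0.179) and without hepatocyte vehicle replicate 1 (0.184), and the call for Mylip was lost at equal depth (0.101). Cell type, culture medium and the dates of the titles cannot be told apart.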

How the results depend on the processing

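Numbers of calls depended on the libraries and on the fit, while the cholesterol enzymes that fell numbered 14 to 16 without any one library and 16 or 17 in the other settings. Against vehicle, genes that rose numbered 158 without the filter and 198 with only the 4 libraries, genes that fell numbered 292 with only the 4 libraries, and LXR targets that fell numbered 2 in both these settings. Leaving out 1 library gave 37 to 61 that rose and 77 to 146 that fell, 3 to 5 fatty acid genes, and against vehicle without desmosterol replicate 1 and T0901317 replicate 2 there were 99 and 183. Against DMHCA, genes that were higher numbered 265 without the filter, 256 with DESeq2 and 110 with only the libraries compared, and leaving out 1 library gave 55 to 311 higher and 122 to 468 lower. Against T0901317 leaving out 1 library gave 133 to 226 higher and 165 to 256 lower, and for the cell type difference 466 to 588 above and 486 to 624 below. The cause of these shifts was not tested.

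Replicate numbers did not pair the samples (correlations of same-numbered deviations −0.022 to 0.062 over 15 pairs of groups). With a replicate block 117 genes rose and 204 fell against vehicle, 204 were higher and 288 lower against DMHCA, 447 and 435 against T0901317, and 634 above and 685 below for the cell type difference. The block ended the calls of Leap2 against vehicle (adjusted p = 0.052), Gm15910 against DMHCA (0.0518) and Nat1 against T0901317 (0.0572), and no other call among the genes followed. Under the block Mylip changed by −0.11 against vehicle and 0.00 against DMHCA.

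Values that changed sign belonged to genes that were not called, apart from Gpnmb, which was called and changed sign without vehicle replicate 1. Without 1 library, log2 fold changes against vehicle ran from −1.47 to 0.65 for Mylip, −1.79 to 0.043 for Abcg1, −2.57 to 2.15 for Nat1, −0.42 to 0.11 for Paqr8, −0.094 to 0.051 for Fasn, −3.66 to 0.37 for Gpnmb, −0.036 to 0.28 for Acaca, −0.72 to 0.068 for Idi1, −0.032 to 0.22 for Mlxipl and −0.028 to 0.21 for Tm7sf2. Mylip against DMHCA ran from −1.39 to 0.74, and Fasn between cell types from −0.10 to 0.052, with 0.005 under other size factors and with DESeq2. Of 147 genes followed against vehicle 110 were called, and 45 of these kept the call and direction in all settings. Vehicle replicate 2 had the fewest counts, and genes of a few reads, such as Abcg1 and Mylip, could not show a moderate change at this depth.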

Other observations

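Further gene groups were counted after their values were seen, so their counts describe the data and carry no test of the group. Over all genes tested against vehicle 0.789% rose and 1.38% fell. Trafficking genes between the endoplasmic reticulum and the Golgi rose for some members with MePipHCA against vehicle. Of 9 tested subunits of the COPI coat, which returns vesicles to the endoplasmic reticulum, 4 rose and none fell, with a median log2 fold change of 0.31. Copb2 (0.53 ± 0.08) kept its call in every setting, while Copb1 (0.37 ± 0.09) and Copg1 (0.31 ± 0.09) lost it without any one of the 4 libraries (adjusted p 0.0652 to 0.307 and 0.164 to 0.344). Copa (0.38 ± 0.08) lost it without MePipHCA replicate 2 (0.193), vehicle replicate 1 (0.0636) or vehicle replicate 2 (0.0647), which left 1 of the 4 calls in each of these settings. Of 13 genes of the COPII coat, which carries cargo out of the endoplasmic reticulum, 4 rose (median 0.24), Sar1a, Sec23a, Sec24d and Sec31a, and each was lost without at least 1 library. Of 3 KDEL receptors 2 rose, Kdelr2 (0.49 ± 0.11) and Kdelr3, and both genes of the signal recognition particle receptor rose, Srpr (0.46 ± 0.09) and Srprb (0.43 ± 0.12). All 4 of these were lost without at least 1 library.

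Aldehyde dehydrogenases other than Aldh1l2, and sulfotransferases, fell where they changed. Of 16 tested Aldh genes 1 rose, Aldh1l2, and 4 fell, with a median of −0.16. Aldh1a1, which makes retinoic acid, had 549 and 555 CPM with MePipHCA, against 1042 and 968 CPM with vehicle, with no overlap and a change of −0.86 ± 0.08 (adjusted p = 6.38e-08 in edgeR's quasi-likelihood test). Its near-identical paralog Aldh1a7 changed by −0.81 ± 0.12, and reads may be split between them. Of 8 Sult genes 2 fell (median −0.32), and Sult1a1, which conjugates phenols, had 90.5 and 93.9 CPM with MePipHCA, against 179.5 and 161 CPM with vehicle (−0.89 ± 0.11). The other, Sult1d1 (−0.38 ± 0.10), was lost without any one of the 4 libraries (0.0825 to 0.443). Of the 3 fibrinogen chains Fga and Fgb fell and Fgg was not called (−0.24 ± 0.10).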
